A study of Danio rerio with 13 samples.

Results

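The 5 genes described here, *fabp10a* (ENSDARG00000038439), *TTR* (ENSDARG00000037191), *tfa* (ENSDARG00000016771), *fga* (ENSDARG00000020741) and *FGB* (ENSDARG00000008969), were picked by their identifiers from the 32105 genes of a liver count table, as transcripts that hepatocytes make in large amounts. All 5 were among the 16376 genes that passed the filter on low counts. RNA sequencing was done on 13 livers, from 3 *tert*-/-, 5 *tert*+/- and 5 *tert*+/+ zebrafish. All fish were males of the AB strain, 3 months old. *tert* is the gene of the telomerase reverse transcriptase, and the mutants carry a nonsense allele, as 2 copies in *tert*-/- and as 1 copy in *tert*+/- fish, in every cell of the animal. The study used these fish as a model of telomeric ageing, and the comparisons ask whether the loss of *tert* copies moved the liver transcriptome. Each library is 1 liver, so fewer hepatocytes in a sample and less RNA of these genes per hepatocyte cannot be told apart.

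Hepatocytes secrete most proteins of the blood plasma, including carriers, clotting factors and complement. *tfa* encodes transferrin, the iron carrier of plasma. *TTR* encodes transthyretin, which carries thyroid hormone and, bound to the retinol-binding protein RBP4, helps to carry retinol. *fga* and *FGB* encode the alpha and beta chains of fibrinogen, which are assembled with the gamma chain (*FGG*) inside the hepatocyte and are cut by thrombin to form the fibrin clot. *fabp10a* differs from the others in that its product is not secreted: it is the liver-type bile acid and fatty acid binding protein of the hepatocyte cytosol, and its promoter is widely used to mark zebrafish hepatocytes.

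The libraries held 17801374 to 37309651 counts, with a median of 26398557. In 3 of them, *tert*-/- replicate 1, *tert*+/- replicate 3 and *tert*+/+ replicate 5, a list of intestine markers took 4.17%, 2.62% and 4.23% of the counts, against 0.0166% to 0.0369% in the other 10 livers. These are called intestine-marked below, with 1% of counts as the limit. Hepatocyte markers other than the 5 genes took 2.86% to 4.02% of the counts in the intestine-marked livers and 7.54% to 18.8% in the others. Of the 3 most abundant of these markers, *apoa1b* and *apoa2* were lower in the intestine-marked livers. The third, *apobb.1*, was not. It stood at 10260 to 11430 CPM (counts scaled by the library total, after TMM normalisation) in those livers and 4040 to 10590 CPM in the others. Heart muscle markers took 1.01% of the counts in *tert*+/- replicate 5 and 1.21% in *tert*+/+ replicate 1, and at most 0.00339% elsewhere. Mitochondrially encoded genes took 32.8% in *tert*-/- replicate 2, 40.3% in *tert*+/- replicate 3 and 54.65% in *tert*+/+ replicate 4, and less than 30% elsewhere. Exocrine pancreas markers reached 0.953% in *tert*-/- replicate 1 and at most 0.0674% elsewhere. *tert* itself had 4.94, 5.68 and 3.96 CPM in *tert*-/- livers, 2.68 to 9.80 CPM in *tert*+/- livers and 0.485 to 11.4 CPM in *tert*+/+ livers. The highest *tert*+/- and *tert*+/+ values came from the intestine-marked livers. In the other 10 livers the genotypes did not overlap. There *tert* stood at 0.485 to 2.398 CPM in *tert*+/+, 2.68 to 3.41 CPM in *tert*+/-, and 3.96 and 5.68 CPM in *tert*-/- livers. Few counts lie behind the narrow gap between *tert*+/+ and *tert*+/- livers. The value of 2.398 CPM rests on 25 counts, in *tert*+/+ replicate 4, and that of 2.68 CPM on 53 counts, in *tert*+/- replicate 2. The order of the genotypes was seen in the data once the intestine-marked livers were set aside, and was not tested. The share of all genes that separate the genotypes in this way was not counted. A nonsense allele need not lower its transcript, so these levels were not used to check the labels.

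The 5 genes together held 3.26% to 11.1% of all counts in the 10 livers that were not intestine-marked, and 0.879% to 1.57% in the 3 intestine-marked livers. To compare genes with each other, counts were divided by gene length and scaled to a common total in each liver (TPM). By TPM the order was *fabp10a*, *tfa*, *FGB*, *fga* and *TTR* in 11 livers. *fga* stood above *FGB* in the other 2, which were *tert*+/+ replicates 3 and 5. Over all 13 livers the medians were 53580 TPM for *fabp10a*, 20220 for *tfa*, 3780 for *FGB*, 2845 for *fga* and 493 for *TTR*. *FGB* and *fga*, next to each other in this order, covered nearly the same range, with 660 to 5901 TPM for *FGB* and 570 to 5770 TPM for *fga*, and within a liver the log2 ratio of *fga* over *FGB* averaged -0.14 ± 0.20 (SD, n = 13). *fabp10a* ranked between 1st and 9th of all genes by TPM in the 10 livers that were not intestine-marked, and *tfa* between 4th and 21st. *TTR*, although a plasma carrier too, ranked between 176th and 277th there. In the intestine-marked livers *fabp10a* ranked 14th to 29th, *tfa* 31st to 66th and *TTR* 639th to 1084th.

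The level of *fabp10a* was 1888, 28899 and 22579 CPM in the 3 *tert*-/- livers, 34124, 31241, 2502, 22700 and 14080 CPM in the 5 *tert*+/- livers, and 24734, 22695, 22541, 26452 and 3506 CPM in the 5 *tert*+/+ livers, in the order of their replicate numbers. One liver of each genotype, the intestine-marked one, lay far below the rest, and the genotypes overlapped. Without those 3 livers *fabp10a* averaged 25740 ± 4469 CPM in *tert*-/- (SD, n = 2), 25540 ± 9048 CPM in *tert*+/- (n = 4) and 24110 ± 1856 CPM in *tert*+/+ livers (n = 4). The coefficient of variation of CPM was 17.4%, 35.4% and 7.70% in that order of genotypes, and the wide spread in *tert*+/- livers ran between replicate 5, which carries heart muscle markers, and replicate 1. The narrow spread in *tert*+/+ livers did not hold by TPM. The same livers then ran between 47360 and 62720 TPM in *tert*-/-, 51550 and 82730 in *tert*+/-, and 25790 and 75320 in *tert*+/+. The lowest came from *tert*+/+ replicate 4, with 54.65% mitochondrial counts.

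*TTR* was measured at 27.9, 529 and 295 CPM in *tert*-/- livers, 442, 440, 51.4, 291 and 193 CPM in *tert*+/- livers, and 226, 333, 359, 379 and 54.2 CPM in *tert*+/+ livers. Its highest and its lowest CPM both came from *tert*-/- livers. By TPM both came from *tert*+/- livers, with 666 in replicate 1 and 65.0 in replicate 3. Without the intestine-marked livers it averaged 412 ± 166 CPM in *tert*-/- (SD, n = 2), 342 ± 122 CPM in *tert*+/- (n = 4) and 324 ± 68.3 CPM in *tert*+/+ livers (n = 4). The *tert*-/- liver at 529 CPM was the one with 32.8% mitochondrial counts.

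The iron carrier *tfa* varied most among the livers that were not intestine-marked. It stood at 5024, 28382 and 54155 CPM in *tert*-/- livers, 38913, 73054, 3859, 40310 and 51820 CPM in *tert*+/- livers, and 23578, 61956, 47390, 22502 and 5781 CPM in *tert*+/+ livers. Leaving out the intestine-marked livers, its means were 41270 ± 18220 CPM in *tert*-/- (SD, n = 2), 51020 ± 15780 CPM in *tert*+/- (n = 4) and 38860 ± 19210 CPM in *tert*+/+ livers (n = 4). The 3 lowest of these 10 values, 28382, 23578 and 22502 CPM, came from *tert*-/- replicate 2, *tert*+/+ replicate 1 and *tert*+/+ replicate 4. The mitochondrial share was 32.8%, 12.8% and 54.65% in these livers, and heart muscle markers took 1.21% of the counts in *tert*+/+ replicate 1. The other liver with such markers, *tert*+/- replicate 5 (1.01%), was not low in *tfa*, at 51820 CPM. The part of these shares in the low *tfa* values was not tested.

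Of the fibrinogen chains, *fga* stood at 992, 8808 and 10333 CPM in *tert*-/- livers, 7024, 9139, 1674, 12671 and 6985 CPM in *tert*+/- livers, and 4372, 11163, 13511, 9702 and 1416 CPM in *tert*+/+ livers. *FGB* stood at 749, 6844 and 7534 CPM in *tert*-/- livers, 6708, 8967, 1395, 9317 and 5091 CPM in *tert*+/- livers, and 4416, 8083, 9386, 7652 and 916 CPM in *tert*+/+ livers. The chains ran in nearly the same order over the livers, and both were lowest, among the livers that were not intestine-marked, in *tert*+/+ replicate 1. The third chain, *FGG*, gave 555, 4730 and 6232 CPM in *tert*-/- livers, 6541, 8490, 821, 7108 and 4521 CPM in *tert*+/- livers, and 3828, 6614, 6538, 5703 and 662 CPM in *tert*+/+ livers.

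**Figure D1:**
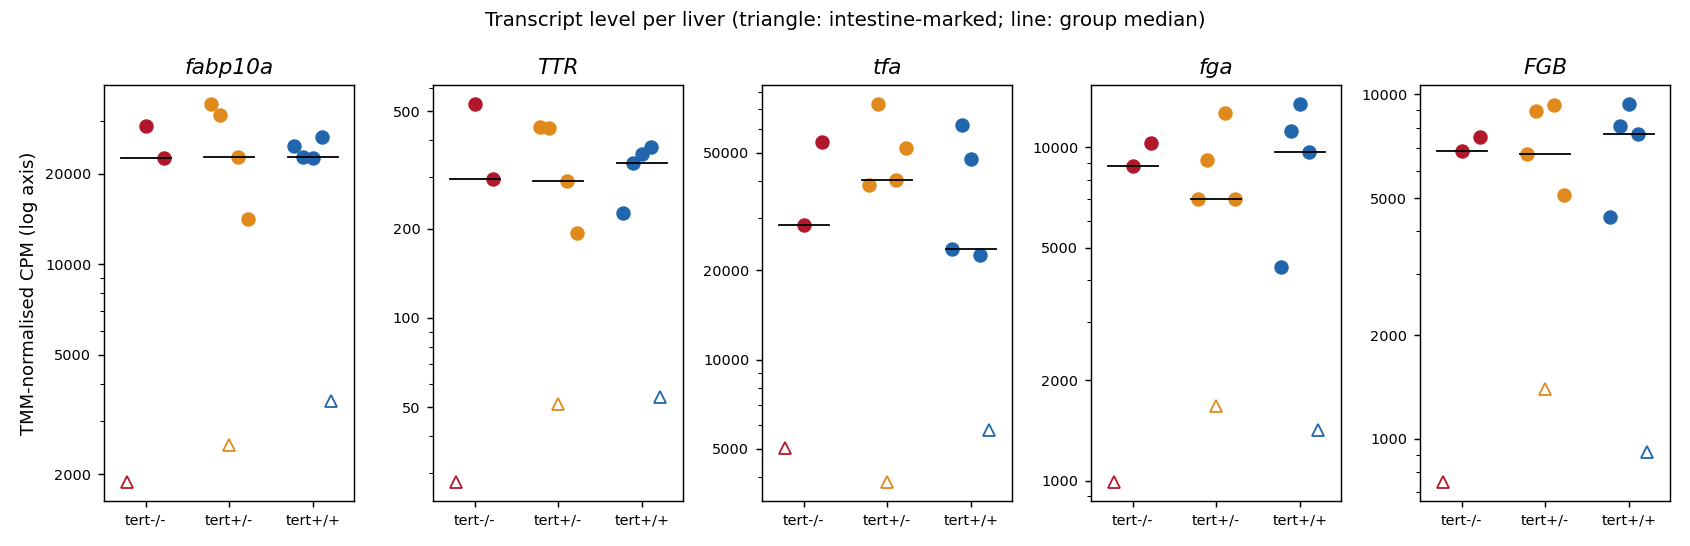
Level of *fabp10a*, *TTR*, *tfa*, *fga* and *FGB* in each liver, in TMM-normalised CPM on a log axis, by genotype. Circles are livers, open triangles the 3 intestine-marked livers and lines the median of a genotype. The triangles lie below all circles in every panel, and the circles of the 3 genotypes overlap.

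For all 5 genes the 3 intestine-marked livers lay below each of the other 10. This split was not particular to the 5 genes. It also held for *fetub* (857 to 1574 CPM against 8119 to 16960 CPM) and the red blood cell marker *hbaa1* (17.6 to 37.9 CPM against 108 to 468 CPM). *XBP1* and *CEBPA*, given below, did not split in this way, and the share of all genes that did was not counted. Against the mean of the other livers of the same genotype, *fabp10a* was 13.6-fold lower in the intestine-marked *tert*-/- liver, 10.2-fold lower in the *tert*+/- one and 6.87-fold lower in the *tert*+/+ one. For *TTR* the same folds were 14.8, 6.65 and 5.98, and for *tfa* 8.21, 13.2 and 6.72. The fibrinogen chains gave 9.65, 5.35 and 6.84 for *fga* and 9.59, 5.39 and 8.07 for *FGB*. All 3 genotypes had 1 such liver, and the folds are descriptions of single livers, with no test. The intestinal fatty acid binding protein gene *FABP2* stood between 5535 and 9702 CPM in these 3 livers and at 60.0 to 472 CPM in the others. It is on the list of intestine markers that defined these livers, so its high level there follows from the grouping. *HNF4A*, a transcription factor of hepatocytes and of intestinal epithelium, also lay below the other livers in these 3, but differed far less. It stood between 72.7 and 83.3 CPM in the same 3 livers and at 86.3 to 173 CPM in the others. The part of other tissue in the low levels of the 5 genes was not tested.

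Over all 13 livers the standard deviation of log2 CPM lay between 1.29 (*fga*) and 1.47 (*fabp10a*). Of the 4101 genes with a mean log2 CPM of at least 4, whose median standard deviation was 0.554, 80.8% to 87.1% varied less than these genes. Among the 10 livers that were not intestine-marked the standard deviations were 0.351 for *fabp10a*, 0.363 for *FGB*, 0.450 for *TTR*, 0.481 for *fga* and 0.581 for *tfa*, beside a median of 0.427. There 33.2% of genes varied less than *fabp10a* and 72.5% less than *tfa*. The spread of these transcripts over the series thus shrank to that of a middling gene once the 3 intestine-marked livers were set aside.

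No difference between genotypes was found for any of the 5 genes. In the comparison of *tert*-/- with *tert*+/+ livers, edgeR's quasi-likelihood test with Benjamini-Hochberg adjustment over 16376 genes called 0 of the 5 and 0 genes in all (0% of genes tested). At an unadjusted p under 0.05 it held 189 genes (1.15%) and 0 of the 5, and DESeq2 called 3 of 15226 genes (0.0197%) and 0 of the 5. The log2 fold change was -0.17 for *fabp10a* (SE 0.93, 95% interval -2.19 to 1.86), 0.07 for *TTR* (SE 0.85, -1.77 to 1.91) and -0.14 for *tfa* (SE 0.96, -2.23 to 1.94). The fibrinogen chains gave -0.26 for *fga* (SE 0.85, -2.10 to 1.58) and -0.27 for *FGB* (SE 0.84, -2.10 to 1.55), and the adjusted p of edgeR was 1 for each gene.

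For *tert*+/- against *tert*+/+ livers edgeR again called 0 of the 5 and 0 of all genes (0%), with 218 genes (1.33%) and 0 of the 5 at an unadjusted p under 0.05, and DESeq2 called 0 genes (0%). The largest of the 5 fold changes was that of *tfa*, 0.37 on the log2 scale (SE 0.83, 95% interval -1.43 to 2.17). *fabp10a* and *TTR* stood at 0.07 each, *FGB* at 0.05 and *fga* at -0.10, and the adjusted p of edgeR was 0.9999 for each. The comparison of *tert*-/- with *tert*+/- livers shares its livers with the others. It called 0 of the 5 and 0 of all genes by edgeR (0%), with 184 genes (1.12%) and 0 of the 5 at an unadjusted p under 0.05, while DESeq2 called 2 genes (0.0131%), neither of them among the 5. The log2 fold changes there ran between -0.51 for *tfa* (SE 0.97) and 0.00 for *TTR* (SE 0.85).

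Changes anywhere inside these intervals fit the values, so the lack of a call does not show that the levels were equal. With this spread between livers, some changes beyond them could also have gone uncalled. Without the intestine-marked livers the intervals narrowed. The log2 fold change of *fabp10a* in *tert*-/- against *tert*+/+ livers was then 0.10 (SE 0.40, 95% interval -0.80 to 0.996), that of *TTR* 0.35 (SE 0.39, -0.52 to 1.23), that of *tfa* 0.09 (SE 0.52, -1.07 to 1.26), that of *fga* -0.01 (SE 0.46, -1.03 to 1.01) and that of *FGB* -0.03 (SE 0.39, -0.90 to 0.83). *fabp10a* and *tfa* thus changed sign with the choice of livers. edgeR called 0 of 16219 genes in each comparison of these 10 livers, and 328 genes (2.02%) had an unadjusted p under 0.05 for *tert*-/- against *tert*+/+. For *tert*+/- against *tert*+/+ that number was 383 (2.36%), and for *tert*-/- against *tert*+/- it was 305 (1.88%), with 0 of the 5 genes in each.

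**Figure D2:**
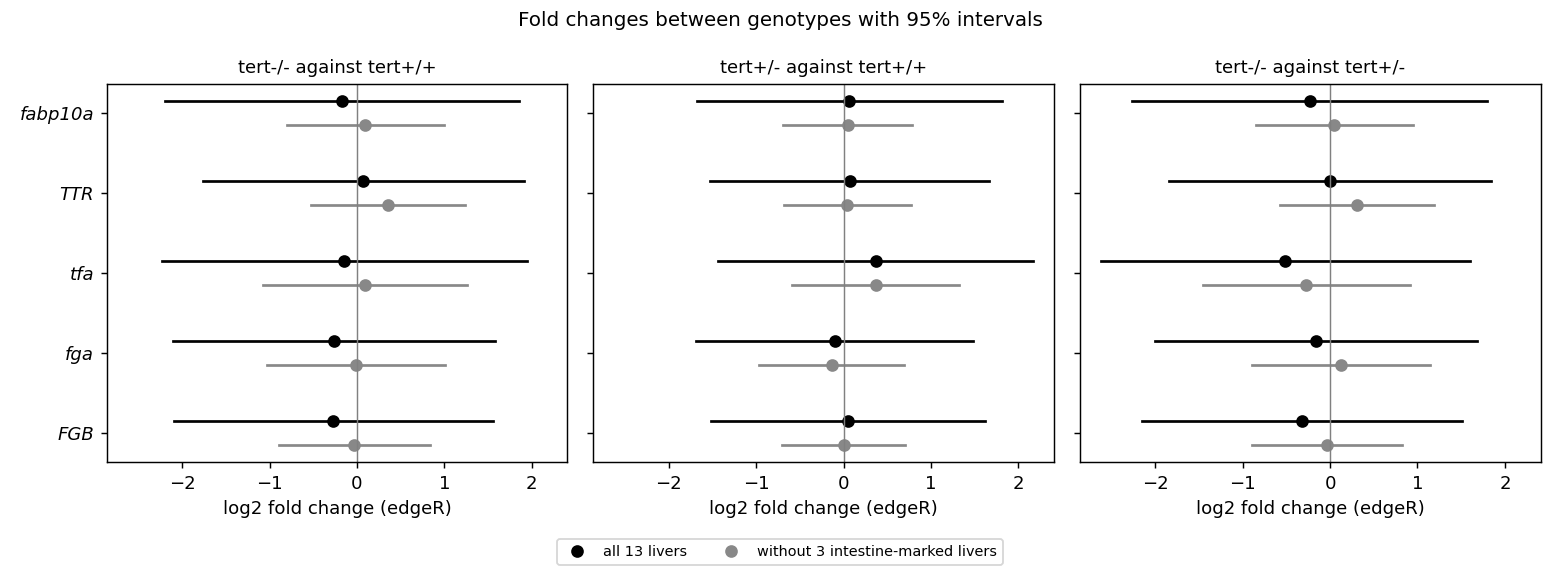
Log2 fold change of the 5 genes (x axis, edgeR) in 3 comparisons of genotypes. Points are estimates and lines 95% intervals, in black for all 13 livers and in grey without the 3 intestine-marked livers. Every interval crosses 0, and the grey intervals are shorter.

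Other plasma protein genes, in lists that leave out the 5 genes, were looked at in the same fits. Of 24 further plasma carriers and protease inhibitors tested, edgeR called 0 in any comparison. In *tert*-/- against *tert*+/+ livers 3 had a positive and 21 a negative fold change, with a median log2 fold change of -0.27, beside -0.01 over all genes. The most abundant were *fetub*, a fetuin (-0.17, SE 0.92), *RBP4*, the retinol carrier of plasma (-0.38, SE 0.84), and *serpina1*, an inhibitor of neutrophil elastase in mammals (-0.26, SE 0.99). Among 19 genes of coagulation, 2 were positive and 17 negative, with a median of -0.28 and 0 called. They include *FGG* (-0.28, SE 0.87), prothrombin *f2* (-0.39, SE 0.85) and plasminogen *PLG* (-0.11, SE 0.88). Of 32 complement genes, 11 were positive and 21 negative, with a median of -0.22 and 0 called, among them *c3a.1* (-0.49, SE 0.93), *c9* of the membrane attack complex (-0.37, SE 0.90) and *cfhl4* (-0.25, SE 0.89).

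In this comparison the split was less uneven without the intestine-marked livers. There 11 of the carriers and inhibitors were positive and 13 negative (median -0.03, beside -0.04 over all genes), 6 coagulation genes were positive and 13 negative (median -0.08), and 14 complement genes were positive and 18 negative (median -0.03). One of 3 *tert*-/- livers but 1 of 5 *tert*+/+ livers was intestine-marked, and the part of this in the splits was not tested. In *tert*+/- against *tert*+/+ livers, with 1 of 5 in each, the lists split 14 positive to 10 negative, 10 to 9 and 23 to 9, with medians of 0.06, 0.01 and 0.10 beside -0.03 over all genes and 0 called. In *tert*-/- against *tert*+/- livers they split 4 positive to 20 negative, 3 to 16 and 9 to 23, with 0 called, and without the intestine-marked livers 7 to 17, 7 to 12 and 8 to 24. The complement split was thus as uneven there without those livers, but its median lay closer to that of all genes. It was -0.36 with all livers, beside 0.01 over all genes, and -0.15 without those livers, beside -0.01.

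Of the other fatty acid binding protein genes, 6 were tested and 0 called in any comparison. *FABP3*, like the 5 genes, was lower where intestine markers were high, between 107 and 147 CPM in those 3 livers and between 671 and 1788 CPM in the others. *fabp4a* was low throughout, with 2.95 to 83.0 CPM. Among 21 hepatocyte transcription factor genes 0 were called, and 9 were positive and 12 negative in *tert*-/- against *tert*+/+ livers. They split 5 to 16 in *tert*+/- against *tert*+/+ livers and 15 to 6 in *tert*-/- against *tert*+/- livers. Without the intestine-marked livers 20 were tested and 0 called, and the splits were 9 to 11, 3 to 17 and 15 to 5 in the same order. The median for 3 to 17 was -0.38, beside -0.06 over all genes. *XBP1*, a regulator of the secretory pathway, ran between 167 and 279 CPM in those 3 livers and 138 to 371 CPM in the others, and *CEBPA* at 64.0 to 90.0 CPM and 11.4 to 400 CPM in the same order.

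A ratio of 2 genes within a liver does not depend on the library total. The steadiest of the 10 pairs was *fga* over *FGB*, both per base of gene length. It averaged 0.954 ± 0.031 in *tert*-/- (SD, n = 3), 0.863 ± 0.120 in *tert*+/- (n = 5) and 0.953 ± 0.153 in *tert*+/+ livers (n = 5). Over all 13 livers it ran only between 0.712 and 1.11, while *fga* itself differed 13.6-fold between its lowest and highest liver. The ratio was 0.951, 0.863 and 1.11 in the intestine-marked livers of the 3 genotypes, inside or next to the range of the other 10 (0.712 to 1.03). Over 13 livers each of the 10 pairs had a lower standard deviation on the log2 scale (at most 0.698) than any of the 5 levels. That of *fga* over *FGB* was 0.200, beside 1.29 and 1.31 for the levels of *fga* and *FGB*. In the 10 livers that were not intestine-marked these values were 0.205, 0.481 and 0.363, and *fga* differed 3.09-fold. *FGB* over *FGG* was about as steady as *fga* over *FGB*, at 1.18 ± 0.169 over 13 livers (standard deviation 0.203 on the log2 scale), and *fga* over *FGG* was less so (0.347).

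*fabp10a* over *TTR* was the next steadiest pair of the 5 genes, with a standard deviation of 0.278 on the log2 scale. Per base, *fabp10a* was 107 ± 17.7 times as abundant as *TTR* in *tert*-/- (SD, n = 3), 112 ± 19.3 times in *tert*+/- (n = 5) and 121 ± 31.5 times in *tert*+/+ livers (n = 5). The lowest ratio, 78.4, came from the intestine-marked *tert*+/- liver and the highest, 176, from the heart-marked *tert*+/+ replicate 1.

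Ratios with *tfa* moved most. *fabp10a* over *tfa* was 1.75, 4.75 and 1.95 in *tert*-/- livers, 4.09, 1.996, 3.03, 2.63 and 1.27 in *tert*+/- livers, and 4.89, 1.71, 2.22, 5.49 and 2.83 in *tert*+/+ livers. Its standard deviation on the log2 scale was 0.667, and that of *TTR* over *tfa* was 0.698, the highest of the 10 pairs. The 3 highest *fabp10a* to *tfa* ratios came from the livers with the lowest *tfa* among the 10 that were not intestine-marked. As *tfa* is the divisor, this follows in part from how the ratio is formed.

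No ratio passed the test between genotypes. Two-sided exact permutation tests of the 10 log2 ratios found 0 past 0.05 in each of the 3 comparisons. The lowest exact p was 0.5 for *tert*-/- against *tert*+/+ livers, 0.341 for *tert*+/- against *tert*+/+ livers and 0.321 for *tert*-/- against *tert*+/- livers, and the lowest adjusted over the 30 tests was 0.998. The smallest p that these group sizes allow is 0.0357, 0.00794 and 0.0357. Without the intestine-marked livers the lowest exact p values were 0.533, 0.286 and 0.4. In the comparisons that hold the 2 remaining *tert*-/- livers no p below 0.133 can be reached.

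**Figure D3:**
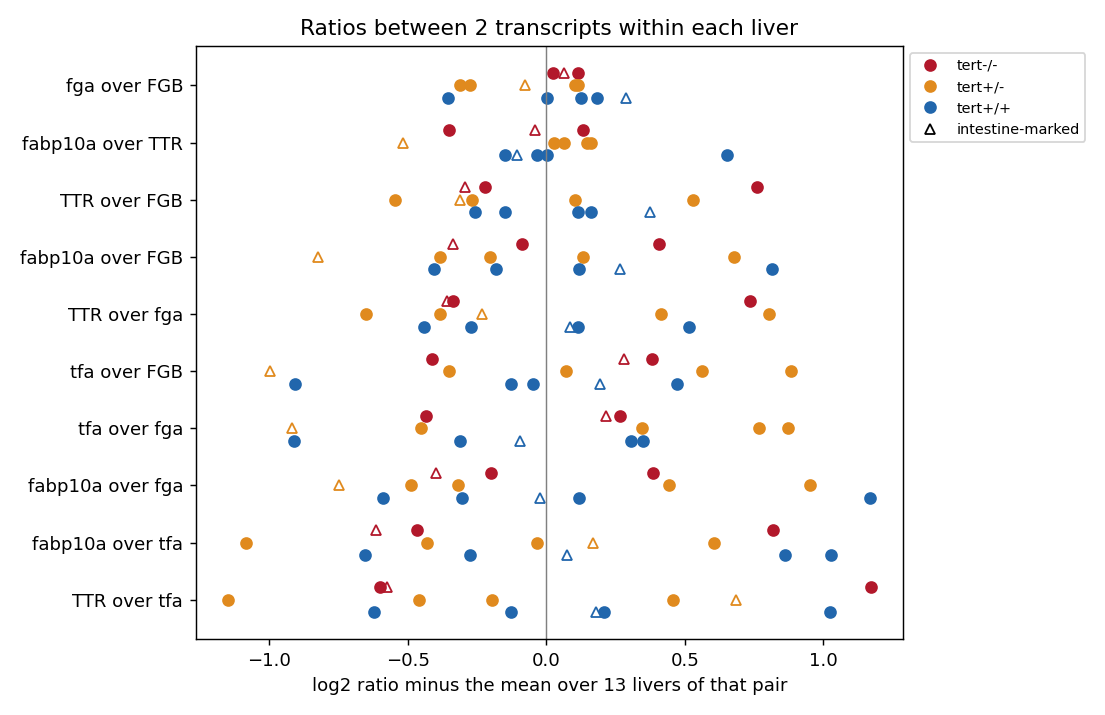
Log2 ratio of each pair of the 5 genes in each liver, minus the mean of that pair over 13 livers (x axis), with pairs ordered from the lowest to the highest standard deviation. Colours are genotypes and open triangles the intestine-marked livers. *fga* over *FGB* spans the narrowest range at the top, and *TTR* over *tfa* has the highest standard deviation at the bottom.

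Across the 10 livers that were not intestine-marked, 2 of the 10 pairs were correlated in log2 CPM by a permutation test adjusted over the 10 pairs. *fga* and *FGB* had a Pearson r of 0.92 (permutation p = 0.00019, adjusted 0.0019) and a Spearman rho of 0.92 (permutation p = 0.00045, adjusted 0.0045), and r was 0.81 without the 2 livers farthest from the median of *fga*. *fabp10a* and *TTR* had an r of 0.82 (permutation p = 0.00285, adjusted 0.0143) and a rho of 0.73 (permutation p = 0.0201, adjusted 0.101), with r at 0.67 without the 2 farthest livers. The other 8 pairs had r between -0.21 and 0.54, and no pair with *tfa* passed the test. The intestine-marked livers were left out because they form a separate cluster, and they number too few for a value of their own.

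Both calls depended on which livers were included. Without *tert*+/- replicate 5, a heart-marked liver and the lowest in *fabp10a* of these 10, r of *fabp10a* and *TTR* was 0.69 (exact permutation, adjusted p = 0.209), while r of *fga* and *FGB* was 0.94 (exact permutation, adjusted p = 0.00976). Leaving out both heart-marked livers gave r of 0.80 for *fga* and *FGB* and 0.82 for *fabp10a* and *TTR* (exact permutation, adjusted p = 0.0573 for each, n = 8). The pair *fabp10a* and *fga*, at r = -0.04 over 10 livers, then had r = -0.90 (exact permutation, adjusted p = 0.0104, n = 8). Its rho of -0.88 did not pass (exact permutation, adjusted p = 0.0724). Leaving out the 2 livers with the highest mitochondrial shares among the 10 gave r = 0.92 for *fga* and *FGB* (exact permutation, adjusted p = 0.0114) and 0.83 for *fabp10a* and *TTR* (exact permutation, adjusted p = 0.0585). Both of these sets of 8 livers were chosen after seeing the data.

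**Figure D4:**
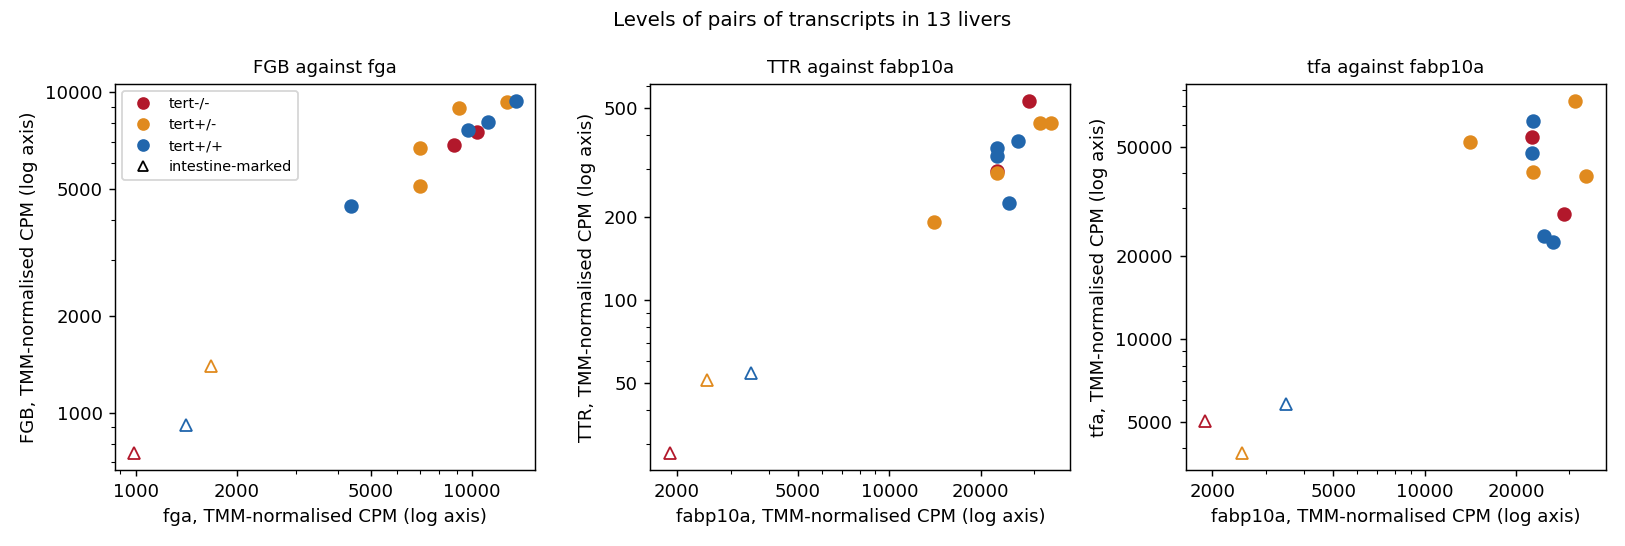
Levels of *FGB* against *fga*, of *TTR* against *fabp10a* and of *tfa* against *fabp10a* in 13 livers, in TMM-normalised CPM on log axes. Colours are genotypes and open triangles the intestine-marked livers. The circles of *fga* and *FGB* follow a line (r = 0.92 over the 10 livers), while those of *fabp10a* and *tfa* do not (r = -0.21).

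The same 10 livers differed in depth, mitochondrial share and heart muscle markers. A ranking of likeness over them is a description, and was not repeated with any liver left out. The genes whose levels ran most like each of the 5 were ranked by Pearson r among 4100 genes. For *fga* they included the ribosomal protein genes *RPL9* (r = 0.96), *RPL4* and *RPL10A* and the glutathione transferase *gstt2*. For *TTR* they were *RPL12* (r = 0.98), *NMRK2*, *TFCP2L1*, *SERP1* and *naca*, of which *SERP1* and *naca* act on nascent proteins. For *tfa* they were *SSR1* of the translocon (r = 0.96), *surf4*, a cargo receptor of the endoplasmic reticulum, and *RPN2* of the oligosaccharyltransferase, followed by si:ch211-107o10.3 and *SERPIND1*, the plasma inhibitor heparin cofactor II. *fabp10a* was followed most closely by *TTPA*, the liver carrier of vitamin E (r = 0.97), then by *DDX21*, *rhocb*, *cbln17* and *RBP2*. *FGB* had si:dkey-90m5.4 (r = 0.94), *OLFM1*, *gstt2*, *ugt5b4* and the complement gene *c8a*. *FGB* was 12th in the list of *fga* and *fga* 9th in that of *FGB*, *FGG* was 31st for *FGB* and 416th for *fga*, and *TTR* was 123rd for *fabp10a*.

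In the order of protein-coding genes of the RefSeq annotation (assembly GRCz12tu, used here for neighbours only), *fgb* and *fga* flank a single gene, LOC100536670, and stand between *rnf175* and *lratb.1*. *fgg* stands apart, between *plrg1* and *lrata*. *fabp10a* lies between *myom3* and *srsf10a*, *ttr* between *pum2* and *b4galt6*, and *tfa* between *ubxn7* and *eif4g1a*. *FGB* over *FGG*, a pair that lies apart, was about as steady as *fga* over *FGB*: the standard deviations on the log2 scale were 0.203 and 0.200 over 13 livers, and 0.174 and 0.205 over the 10 that were not intestine-marked. *fga* over *FGG*, which lies apart too, was less steady, at 0.347 over 13 livers and 0.345 over the 10. The part of gene order in these ratios was not tested.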

How the data were processed

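RNA of 13 livers was sequenced from TruSeq libraries, which do not keep strand. Gene counts, as the authors deposited them, are tied by the submitters' notes to the build GRCz10, with featureCounts 1.4.6-p4 after STAR 2.4.1d and, for demultiplexing, bcl2fastq 1.8.4, whereas the study's methods name kallisto. RPKM values were deposited too. The gene lengths they imply had a median coefficient of variation between livers of 27.8% with each liver's own total as the divisor, and of 0.00188% with the 13 totals recycled from gene to gene, over 2866 genes with at least 200 counts in every liver. Only 7.69% of the RPKM values are therefore scaled by their own total, and the table served only for gene lengths, from which TPM and RPKM with the liver's own total were computed. Those RPKM were tested as log2(RPKM + 1) by limma, a scale that understates the change of low genes.

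Groups came from the submitters' genotype labels. The labels give no batch and no replicate number. Each title holds a number of its own, and each liver was taken as a separate fish. In all 78 pairs of libraries the counts differed by more than sampling noise (chi-square per degree of freedom of at least 86.1). Counts were tested in R 4.3.3 with edgeR 4.0.16 (filterByExpr, TMM, 1 quasi-likelihood fit over all livers, threshold 0.05 after Benjamini-Hochberg adjustment), with DESeq2 1.42.0 and limma 3.58.1 as alternatives, after a run on simulated data. Ratios and correlations were computed in Python 3.11.15 with scipy 1.17.1, with exact permutation tests, or 100000 permutations for 10 livers. CPM are TMM-normalised, and the counts per library limit precision less than the spread between livers.

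The 5 genes, the gene and marker lists and the comparisons were chosen with earlier results of these data known. Beside the 5 genes, the text names *tert*, *FGG*, the 5 genes most like each by Pearson r and the most abundant genes of each list described. One of the genes most like *fga* is not reported here. Of 32105 identifiers 26269 were paired with a symbol, some of them that of a matching human gene. Close paralogs, overlapping genes and antisense genes may share or split counts. Leaving out each liver, the livers marked by other tissue, other scalings, no filter on low counts, only the groups compared and other tools were tried. No promoter sequence was used here.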

Additional observations from a re-analysis of the deposited data

Results flagged for a closer look

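Levels and ratios of the 5 genes were checked by Dixon's criterion within *tert*+/- and within *tert*+/+ livers, but not within *tert*-/- livers. Of these 30 sets of 5 livers, 3 held a liver far from the others, which chance gives in about 1 in 20 sets. *fabp10a* stood at 3506 CPM in *tert*+/+ replicate 5, an intestine-marked liver, against 22541 to 26452 CPM in the other *tert*+/+ livers. The log2 ratio of *fabp10a* over *TTR* was 6.29 in the intestine-marked *tert*+/- replicate 3, against 6.84 to 6.97 in the other *tert*+/- livers. The same ratio was 7.46 in *tert*+/+ replicate 1, whose heart muscle markers took 1.21% of the counts, against 6.66 to 6.81 in the other *tert*+/+ livers. The part of other tissue in these values was not tested.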

How the results depend on the processing

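The number of the 5 genes called between genotypes stayed at 0 in each comparison under all 9 other settings (among them DESeq2, RLE size factors, totals without mitochondrial genes, no filter and limma) and when each of the 13 livers was left out. As the main edgeR fit called 0 of all 16376 genes in each comparison, a 0 for the 5 genes says little about them. For most of the other settings the share called over all genes was not counted. The number of pair ratios past 0.05 was 0 under the 4 settings run for it (a difference of medians, and without the intestine-marked, the intestine-marked and heart-marked, or the mitochondrially high livers) and when each liver was left out. Where only 2 *tert*-/- livers remained, no exact p under 0.05 could be reached in their comparisons. Nor could one be reached for *tert*+/- against *tert*+/+ livers without the intestine-marked and heart-marked livers. In these cases the 0 says nothing about stability. The lowest adjusted p of the 5 genes over all settings was 0.849. The signs of these small fold changes depended on the livers and the scale. For *tert*-/- against *tert*+/+ livers, *fabp10a* stood at 0.097 and *tfa* at 0.095 without the intestine-marked livers, *fabp10a* at 0.11 without the intestine-marked and heart-marked livers (chosen after seeing the data), and *TTR* at -0.58 without the livers high in mitochondrial counts (also chosen after seeing the data) and at -0.29 by limma. For *tert*+/- against *tert*+/+ livers, *fga* stood at 0.24 without the livers high in mitochondrial counts and at 0.10 by limma, and *fabp10a* at -0.0072 by limma. For *tert*-/- against *tert*+/- livers, *fabp10a* stood at 0.049 and *fga* at 0.12 without the intestine-marked livers, and *TTR* at -0.0010 with no filter on low counts, -1.07 without the livers high in mitochondrial counts and -0.38 by limma. The cause was not tested.

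Leaving out each liver in turn, the log2 fold changes of *tert*-/- against *tert*+/+ livers ran between -0.70 and 0.37 for *fabp10a*, -0.73 and 0.61 for *TTR*, -0.95 and 0.36 for *tfa*, -0.71 and 0.26 for *fga* and -0.68 and 0.24 for *FGB*. Each of these upper values came without the intestine-marked *tert*-/- replicate 1. For *tert*+/- against *tert*+/+ livers they ran between -0.21 and 0.34, -0.20 and 0.33, 0.07 and 0.74, -0.37 and 0.17, and -0.23 and 0.30 for the 5 genes in the same order. For *tert*-/- against *tert*+/- livers they ran between -0.76 and 0.30, -0.80 and 0.55, -1.31 and -0.01, -0.61 and 0.35, and -0.73 and 0.19. The number of pairs correlated by Pearson r, 2, ran between 1 and 2 when a liver was left out, and was 1 without the heart-marked livers and 1 without the livers high in mitochondrial counts, both chosen after seeing the data. Without the heart-marked livers the pair called was *fabp10a* and *fga*, and in the other cases of 1 pair it was *fga* and *FGB*. No paired analysis was made, because the labels give no pairing of livers between genotypes. With 3 *tert*-/- livers, 1 of them intestine-marked, changes within the intervals given fit the values, and some beyond them could also have gone uncalled.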
